A study of Mus musculus with 14 samples.

Results

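The host-embryo neural stem cells named NED-cNSC were compared with neural stem cells (NSCs) of the fetal brain, brain-NSC, on the deposited log2 expression values of 2 arrays each, which are 4 of the 14 arrays of the study. A probe entered the comparison where the mean of at least 1 of the groups reached a log2 value of 7.7, which 12960 of 25697 probes did. At this level the detection p-value, the chance of a signal at least this high from negative control probes, crosses 0.05. The probes that passed held 8916 of the 16593 genes on the array, each represented by its brightest probe. Of the passing probes, 11322 reached the level in both groups, 840 only in NED-cNSC, and 798 only in brain-NSC. At the edge of this limit, Ccdc157 and Obp2a entered with a higher group mean of 7.7001, and Dync1i1 and Eps8l1 stayed out at 7.6999.

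The study aggregated induced pluripotent stem cells (iPSCs) with morulas, let chimeric embryos form, and cultured NSCs from their whole brains. NED-cNSC are the X-gal-negative NSCs of these chimeric brains, which therefore descend from the B6C3F1 host embryo and not from the iPSCs, and their labels give 13.5 dpc brain as the source. Brain-NSC were cultured from brains of 13.5 dpc fetuses that were heterozygous for both the ROSA26 and the OG2 transgene, that is, a neo/lacZ and an Oct4-GFP cassette. Both were first grown as neurospheres and then expanded as attached cells with EGF and bFGF, but the neurosphere media were not the same. As the paper describes it, the expansion medium of brain-NSC also had another base than that given for the in vitro and chimera cultures. The groups differ in cell source, in the mice, in the transgenes, in the presence of iPSC-derived cells in the same brain, and in culture history, and these cannot be told apart here. The strain of the brain-NSC fetuses is not given in the sources used here. Nor do the labels say that the replicate arrays of a group stand for different cultures or animals. The p-values therefore rest on array-to-array spread that may be technical only.

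NSCs are dividing cells that renew themselves and can form neurons, astrocytes and oligodendrocytes. In culture, EGF and FGF2 keep them dividing, and Notch signalling through Hes genes holds back neuronal differentiation. The transcription factors Sox2, Olig1 and Olig2 and the filament protein Nestin are commonly used to recognise them.

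On the arrays, the replicates of a group were much closer to each other than to the other group. Pearson correlations across the passing probes were 0.9961 within NED-cNSC and 0.9959 within brain-NSC, and 0.9609 to 0.9636 between them. The Euclidean distances were 16.6 and 17 within the groups and 50.5 to 52.3 between them. Between 12068 and 12600 probes per array had a detection p-value under 0.05, with slightly more on the NED-cNSC arrays (12600 and 12591) than on the brain-NSC arrays (12340 and 12068).

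A gene was called when its Benjamini-Hochberg adjusted p from limma was under 0.05 and its change exceeded 2-fold. By this rule 225 genes were higher and 140 lower in NED-cNSC than in brain-NSC, 365 in all, or 4.09% of the genes tested (2.52% higher and 1.57% lower). Over single probes the share called was 3.58%. When the intensities were scaled to a common median instead of quantile normalized, the split was 151 higher and 203 lower. In all 365 called genes the arrays of the groups did not overlap, which was so for 72% of all genes tested. Where a lack of overlap is stated below for called genes, it therefore adds no evidence to the call. The 2-fold limit set the count, because adjusted p by itself would have called 1806 genes higher and 1645 lower, while 7827 genes stayed within 1.5-fold. Fam162a, at a log2 difference of -1.001, was the called gene nearest to the limit, and Fam76a, at 1, was the nearest gene outside it. More than 4-fold changes were found in 42 higher and 18 lower genes. Of the 7882 genes that reached the level in both groups, 194 were higher and 109 lower. The remaining calls were among the 544 genes that passed only through NED-cNSC, of which 31 were higher, and the 490 that passed only through brain-NSC, of which 31 were lower. Genes were also called without signal above background on the other side: 26 higher genes on no brain-NSC array and 25 lower genes on no NED-cNSC array.

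**Figure D1:**
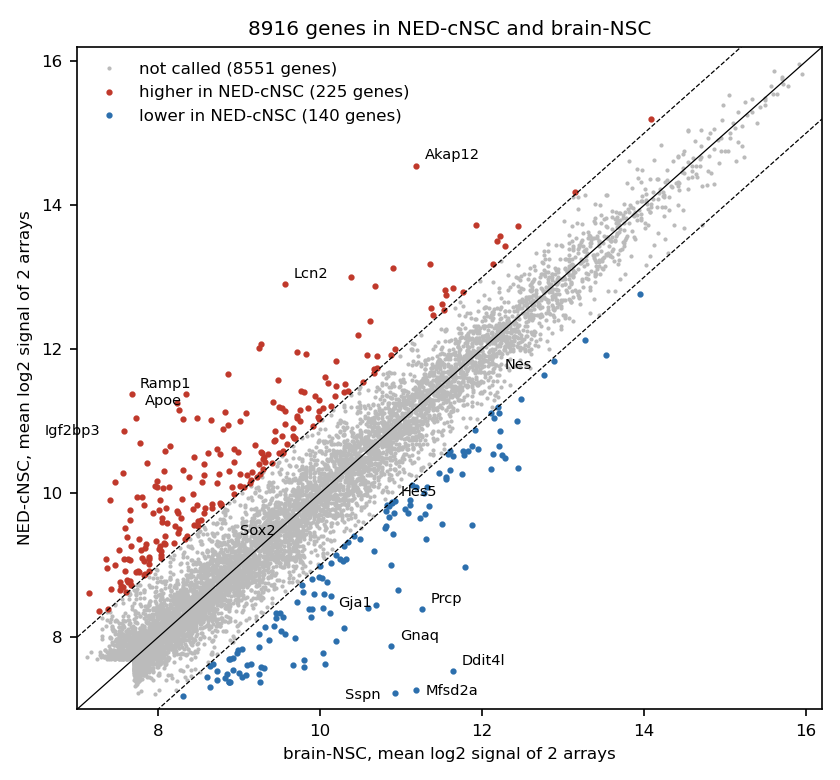
Mean log2 signal of each tested gene in brain-NSC (x axis) and NED-cNSC (y axis), 2 arrays each, with called genes in red (225 higher in NED-cNSC) and blue (140 lower). The solid line marks equal means and the dashed lines a 2-fold difference. The dim genes in the lower left show the cut at the level of 7.7.

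The general NSC markers were present in both groups. Olig1, a transcription factor gene of glial progenitors, was bright in both, with log2 signals of 14.99 and 14.82 in NED-cNSC and 14.91 and 14.94 in brain-NSC. Nes, which encodes Nestin, measured 11.65 and 11.62 in NED-cNSC and 12.23 and 12.14 in brain-NSC, lower by less than the 2-fold limit (log2 difference -0.55 ± 0.11 SE, limma adjusted p = 0.001). Sox2, a transcription factor gene that maintains neural progenitors, measured 9.28 and 9.37 against 9.02 and 8.81 (0.41 ± 0.11 SE, limma adjusted p = 0.0067). The Olig1 arrays overlapped between the groups, while those of Nes and Sox2 did not. A second, dimmer Sox2 probe gave -0.34 with overlapping arrays, so the sign for Sox2 depended on the probe. Olig2 differed by -0.32.

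Of 21 NSC marker genes, 20 were on the array, 15 passed the level, 0 were called higher and 2 lower, and the median difference was -0.12, beside -0.02 over all genes tested. The 5 that passed in neither group were Pax6, Sox1, Sox3, Msi1 and Gli3. The 2 that fell were Hes5 and Fabp7. Hes5, the Notch target that keeps progenitors undifferentiated, had log2 signals of 9.82 and 9.92 in NED-cNSC and 10.84 and 10.95 in brain-NSC, a difference of -1.02 ± 0.09 (SE, n = 2 per group, limma adjusted p = 3.8e-07). Both NED-cNSC arrays lay below both brain-NSC arrays, and a second Hes5 probe was also called lower (-1.35). Fabp7, which encodes the fatty acid-binding protein of radial glia, measured 8.99 and 9.3 against 9.95 and 10.42 (-1.04 ± 0.19 SE, limma adjusted p = 0.00045). Both calls sat at the 2-fold limit: without replicate 1 of NED-cNSC the differences were -0.98 for Hes5 and -0.89 for Fabp7, and without replicate 2 of brain-NSC they were -0.97 and -0.81.

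In the lists of differentiated neural cells, more genes were called higher than lower. This was also so over all genes tested (2.52% higher and 1.57% lower), though not under median scaling (151 higher and 203 lower). Of 23 neuron genes 14 passed, 2 rose and 0 fell, with a median of 0.28, which was 0.04 over all 23 genes with no filter and 0.89 with background-corrected intensities. Mapt, which encodes the microtubule-binding protein tau, measured 11.76 and 11.54 in NED-cNSC and 8.91 and 8.8 in brain-NSC (2.79 ± 0.11 SE, limma adjusted p = 1.1e-11). Gad1, the gene for a GABA-synthesizing enzyme, measured 9.63 and 9.83 against 7.87 and 8.01 (1.79 ± 0.1 SE). In both genes every NED-cNSC array lay above every brain-NSC array, and a second probe was called higher too (1.43 for Mapt and 1.35 for Gad1). Neuronal genes with other roles differed less or in the other direction. Dcx, a marker of young migrating neurons, had a mean of 7.89 in NED-cNSC, close to the level, and was not above background in brain-NSC. Map2, a dendrite protein gene, differed by -0.41, within the 2-fold limit. The early neuronal tubulin gene Tubb3 did not reach the level in either group.

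Among astrocyte genes, 14 of 15 were on the array, 10 passed, 2 rose and 1 fell, with a median of 0.28, or 0.08 over all 14 with no filter. Apoe, which encodes the lipid carrier that astrocytes secrete, measured 11.06 and 11.05 in NED-cNSC and 7.82 and 7.64 in brain-NSC, where only 1 array was above background (3.32 ± 0.09 SE, limma adjusted p = 4e-13). Atp1b2, a glial subunit of the sodium pump, measured 13.06 and 12.95 against 10.4 and 10.35 (2.63 ± 0.16 SE, limma adjusted p = 4.5e-09). Gja1, which encodes the gap junction protein connexin 43, went the other way, with 8.4 and 8.27 in NED-cNSC and 10.11 and 10.13 in brain-NSC (-1.79 ± 0.09 SE, limma adjusted p = 5.1e-10). The replicates were tight in all 3 genes and the groups did not overlap. Gja1 was dimmer in both groups than in the iPSC-derived NSCs, whose means were 13.15 to 13.9. Gfap, the classic astrocyte filament gene, had a mean of 8.01 in NED-cNSC and was not above background in brain-NSC, and it was not called.

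Oligodendrocyte lineage genes were called in both directions. Of 13 on the array 11 passed, 3 rose and 1 fell, and the median was 0.4. It was 0.15 over the 7 genes that reached the level in both groups, 0.2 with no filter and 0.88 with background-corrected intensities. Ugt8a, an enzyme gene for myelin galactolipids, measured 9.03 and 8.9 in NED-cNSC and was not above background in brain-NSC, at least 2.38-fold lower there (limma adjusted p = 1e-09). Gpr17, a receptor gene of committed oligodendrocyte precursors, measured 8.6 and 8.7 and was at least 1.92-fold higher. Cnp, a myelin enzyme gene, measured 10.07 and 10.13 against 9.09 and 8.93 (1.09 ± 0.11 SE), though a second probe differed by 0.23 only. Nkx2-2, a transcription factor gene of the early lineage, measured 10.07 and 10.1 against 11.3 and 11.07 and fell by 1.1 ± 0.11 (SE, limma adjusted p = 6.8e-07). No array of one group reached those of the other in these genes. Pdgfra, the receptor gene that marks oligodendrocyte precursors, had a mean of 8.62 in NED-cNSC, was not above background in brain-NSC (at least 1.87-fold higher) and was not called. The mature myelin gene Mbp was at 7.73 in NED-cNSC and not above background in brain-NSC. The calls for Gpr17 and Cnp ended under median scaling (0.93 and 0.94), and that for Nkx2-2 without replicate 1 of brain-NSC (-0.98).

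As a check on other cells in the cultures, the level of whole marker lists was summed. These sums include the called genes just named, so they are no evidence apart from those calls. With no filter the median difference was 0.08 over the astrocyte genes and 0.04 over the neuron genes. The summed linear level of the 14 astrocyte genes on the array was 29200 and 29300 on the NED-cNSC arrays and 19600 and 20500 on the brain-NSC arrays, and that of the 23 neuron genes 16300 and 16500 against 13800 and 13500. For the 13 oligodendrocyte genes, which Olig1 dominates, it overlapped between the groups, at 50300 to 54100 and 49900 to 51500, with 11 and 7 genes detected per array. In such bulk cultures more cells of a type and more RNA per cell cannot be told apart. Cells from outside the neural lineage left little signal. Of the blood genes 0 of 5 on the array were detected on any of the 4 arrays, of 10 microglia genes 1 or 2 per array, of 12 endothelial and pericyte genes 1 in NED-cNSC and 3 in brain-NSC, and of 12 fibroblast and meningeal genes 3 or 4. Of the 13 pluripotency genes 3 passed and 0 were called (0 were past an adjusted p of 0.05), and Nanog was detected on 1 array.

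**Figure D2:**
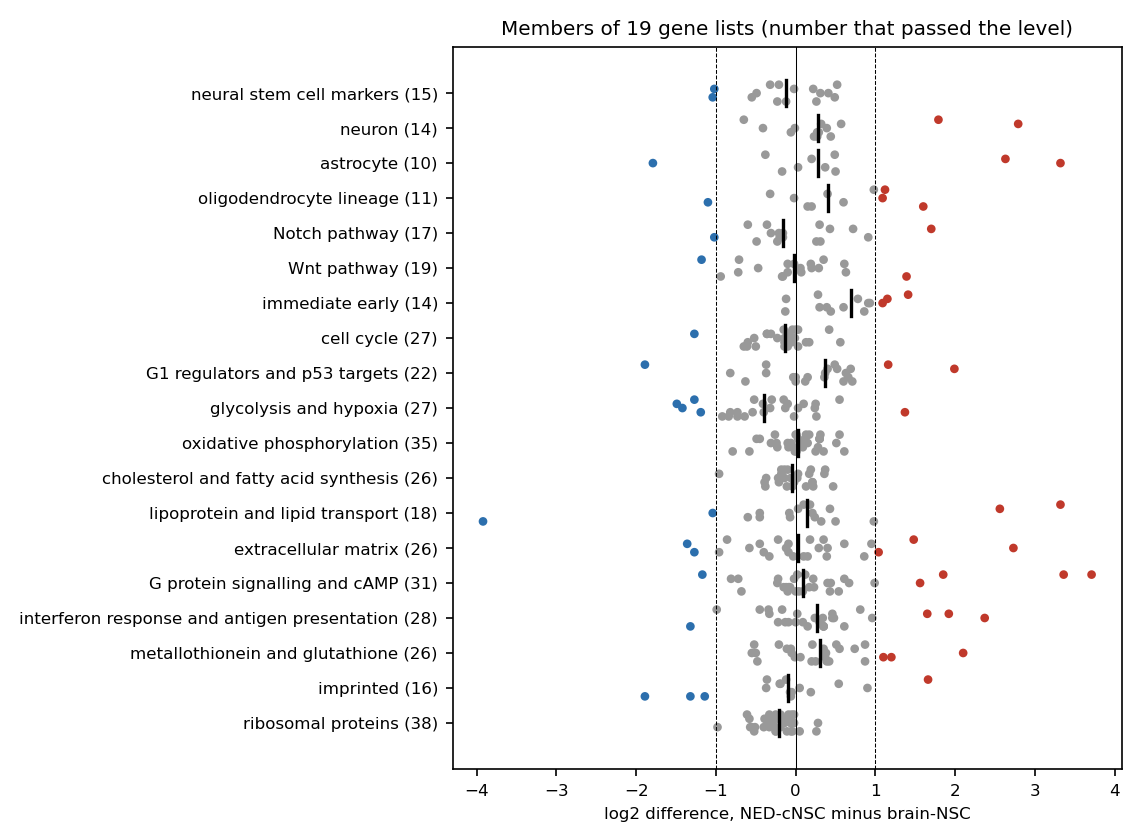
Log2 difference (NED-cNSC minus brain-NSC) of each member that passed the level in 19 gene lists, with called members in red (higher) and blue (lower), other members in grey and the list median as a black bar. The dashed lines mark 2-fold. The immediate early genes lie furthest to the right, with a median of 0.69, and glycolysis and hypoxia furthest to the left, with -0.4.

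The largest rise in NED-cNSC was that of Ramp1, which encodes a partner protein that sets the ligand preference of calcitonin-family receptors. Its log2 signals were 11.41 and 11.35 in NED-cNSC and 7.82 and 7.51 in brain-NSC, where 1 of 2 arrays was above background (3.71 ± 0.11 SE, limma adjusted p = 1e-12). Akap12, a scaffold gene for protein kinase A, measured 14.55 on both NED-cNSC arrays and 11.13 and 11.25 in brain-NSC (3.36 ± 0.08 SE, limma adjusted p = 1.7e-13). Akap12 is thus a change between 2 well-measured levels, while Ramp1 started from background. Rgs4 and Rgs16, whose proteins shorten G protein signals, were 1.85 and 1.56 higher. Together with Gpr37l1, a glial receptor gene that fell by 1.17, these were the 5 called among 31 passing genes of G protein signalling and cAMP, 4 higher and 1 lower, at a median of 0.09. Gnaq, which encodes the Gq alpha subunit and is not on that list, measured 7.82 and 7.93 in NED-cNSC and 10.83 and 10.92 in brain-NSC (-3 ± 0.11 SE, limma adjusted p = 8.6e-12). A second, dimmer Gnaq probe differed by -0.19 with both groups near background.

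Secreted and matrix proteins supplied several of the other large rises. Lcn2, whose product binds bacterial siderophores, measured 12.95 and 12.85 in NED-cNSC and 9.59 and 9.55 in brain-NSC (3.33 ± 0.1 SE, limma adjusted p = 7.6e-13), and its mean in the iPSC-derived NSC groups was at most 9.28. Fbln2, a fibulin gene of elastic fibres and basement membranes, measured 11.41 and 11.34 against 8.39 and 8.29 (3.04 ± 0.08 SE). Col18a1, the gene of a basement membrane collagen, measured 10.89 and 11.18 against 8.31 and 8.3 (2.73 ± 0.12 SE). In all 3 the lower NED-cNSC array was far above the higher brain-NSC array. Other, dimmer probes of Fbln2 and Col18a1 were not above background in brain-NSC and were not called.

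Changes in extracellular matrix genes ran in both directions, with 3 of 26 passing genes higher, 2 lower and a median of 0.03. Col4a1, which encodes a chain of collagen IV, measured 10.76 and 10.58 against 9.26 and 9.12 and rose by 1.48. Lamc1, a laminin chain gene, measured 10.97 and 10.77 against 12.25 and 12.2 and fell by 1.36, and Col5a1, a fibrillar collagen gene, fell by 1.27. Ncan, the gene of the brain proteoglycan neurocan, was 1.04 higher. Among the largest falls outside the list were Serpinh1, the collagen chaperone Hsp47, at 7.46 and 7.72 against 9.86 and 9.74 (-2.21 ± 0.13 SE), and Pcolce, an enhancer of procollagen processing, at 8.21 and 8.06 against 10.35 and 10.24 (-2.16 ± 0.11 SE). Fbln1, a second fibulin gene, fell by 2.24, opposite to Fbln2. None of these genes had overlapping groups.

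Of 28 passing integrin and cell adhesion genes, 3 rose and 2 fell (median 0.03). Itga7, a laminin-binding integrin subunit, measured 10.14 and 10.02 in NED-cNSC against 7.89 and 8.09, and Nlgn3, a synaptic adhesion gene, 10.48 and 10.52 against 8.42 and 8.45 (2.09 and 2.06). The protocadherin gene Pcdh17 rose by 1.35. Itga9, an integrin subunit gene for tenascin and other ligands, measured 7.47 and 7.77 against 9.17 and 9.11 and fell by 1.52, and Itgb5, a beta subunit gene, fell by 1.13. Itga7 was at or below 7.89 in every iPSC-derived NSC group, so its NED-cNSC level was the highest of the NSC groups. Among 22 axon guidance genes 0 were called by limma, although adjusted p by itself placed 6 higher and 3 lower. It placed 1806 of all 8916 genes tested higher and 1645 lower.

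**Figure D3:**
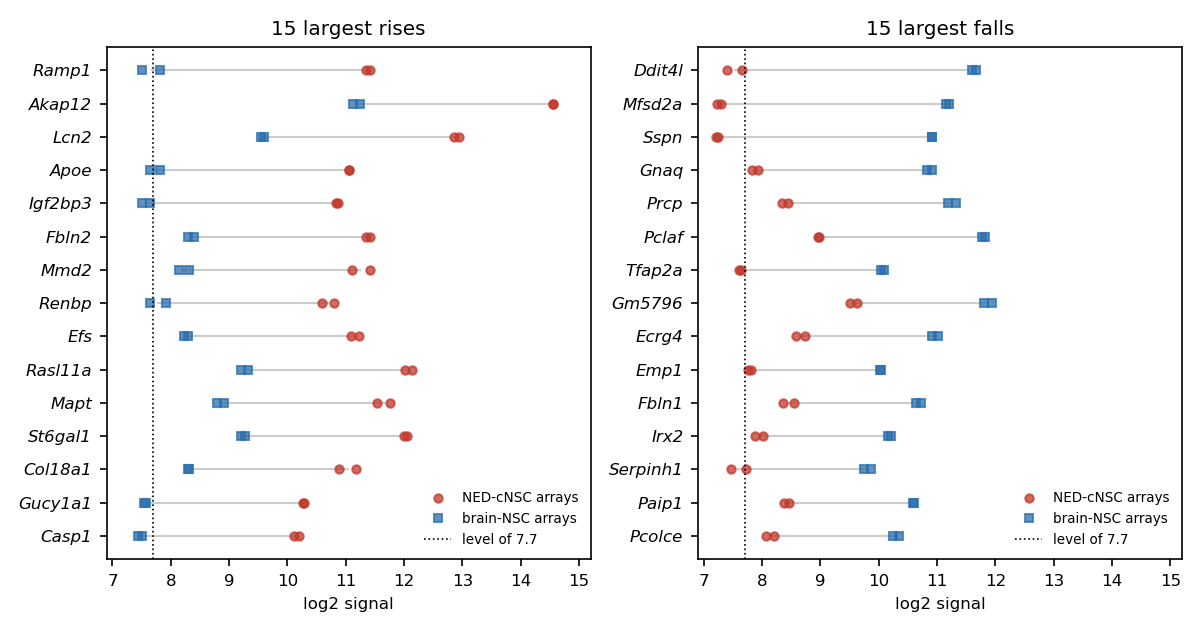
Log2 signal on each array for the 15 largest rises (left) and 15 largest falls (right) in NED-cNSC, with NED-cNSC arrays as red circles, brain-NSC arrays as blue squares and the level of 7.7 as a dotted line. Several of the rises start at, and several of the falls end at, the background, where the size of the change is only a lower bound.

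Among the remaining large rises were enzymes and regulators with no brain-NSC signal above background. Igf2bp3, an RNA-binding protein gene of fetal tissue, measured 10.84 and 10.87 in NED-cNSC and was at least 8.84-fold higher (limma adjusted p = 9.5e-12), and a second probe was at least 6.28-fold higher. Gucy1a1, a subunit gene of the nitric oxide receptor guanylate cyclase, was at least 5.93-fold higher, and Casp1, the inflammasome protease gene, at least 5.45-fold. The brain-NSC arrays of these genes lay between 7.43 and 7.65. The iPSC-derived groups did not share 1 pattern here: Casp1 had a mean of 11.11 in iPS-cNSC and 7.43 in iPS-NSC#3, whereas Gucy1a1 was at 8.08 or lower in all 3.

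St6gal1, a sialyltransferase gene, rose by 2.78 (12.05 and 11.99 against 9.21 and 9.28), and Rasl11a, a gene of the Ras-like GTPase family, by 2.8 (12.13 and 12.01 against 9.21 and 9.32). Efs, a docking protein gene for Src-family kinases, rose by 2.9, Mmd2 by 3.03, and Renbp, an N-acetylglucosamine epimerase gene, by 2.92. For Renbp it was brain-NSC that stood apart, with 7.65 and 7.91 on its arrays against 10.9 to 11.96 for the means of the iPSC-derived NSCs and 10.8 and 10.59 in NED-cNSC. Anxa2, an annexin gene, rose by 2.31, while the calcium-binding protein gene S100a11 fell by 1.79, so the list of 10 passing annexin and S100 genes had 1 call in each direction. In these 7 genes the groups did not overlap.

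The largest falls ended at the background of the NED-cNSC arrays. Ddit4l, which encodes an inhibitor of mTOR signalling, measured 11.67 and 11.6 in brain-NSC and 7.4 and 7.66 in NED-cNSC, at least 15.5-fold lower (limma adjusted p = 1.7e-13). Mfsd2a, the gene of a lysophosphatidylcholine transporter that carries docosahexaenoic acid, measured 11.2 and 11.16 against 7.3 and 7.23, at least 11.3-fold lower. Sspn, which encodes sarcospan of the dystrophin complex, measured 10.91 and 10.92 against 7.25 and 7.21, at least 9.38-fold lower. All 3 were thus well expressed in brain-NSC with no NED-cNSC array above background. Ddit4l and Mfsd2a were also near background in iPS-NSC#3, at means of 7.58 and 7.19, but not in the other iPSC-derived groups. Sspn had means of 10.45 to 12.64 in the iPSC-derived NSCs, and only NED-cNSC among the NSC groups was without signal above background.

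Prcp, a lysosomal carboxypeptidase gene, measured 8.35 and 8.44 against 11.19 and 11.33 (-2.87 ± 0.1 SE, limma adjusted p = 3.7e-12). Pclaf, whose product binds the replication clamp PCNA, measured 8.96 and 8.98 against 11.82 and 11.77 (-2.82 ± 0.09 SE). Paip1, a gene for a partner of the poly(A)-binding protein, measured 8.46 and 8.37 against 10.6 and 10.59 (-2.18 ± 0.08 SE). Prcp and Paip1 were lower in NED-cNSC than in any other NSC group, by 2.98 and 2.23 from the nearest iPSC-derived mean, whereas Pclaf was at 9.11 in iPS-cNSC and 9.19 in iPS-NSC#1. Ecrg4, which encodes a secreted peptide precursor, fell by 2.3 and Emp1, a tetraspan membrane protein gene, by 2.25. Gm5796, a predicted gene with close copies in the mouse genome, fell by 2.32, and its probe may not tell the copies apart.

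Transcription factor genes of non-neural and patterning programmes were called in both directions. Tfap2a, a regulator of neural crest and epidermis, measured 10.09 and 10.04 in brain-NSC and was not above background in NED-cNSC, at least 5.19-fold lower (limma adjusted p = 1.8e-12), and at least 2.13-fold on a second probe. Irx2, a homeobox gene, measured 8.01 and 7.88 against 10.16 and 10.21 (-2.24 ± 0.09 SE), and Twist1, a mesenchymal factor gene, was at least 2.94-fold lower. NED-cNSC lay at or near background in all 3. Tfap2a was the only call among 4 passing neural crest genes and Twist1 the only call among 5 passing fibroblast and meningeal genes. Of 11 passing forebrain and midbrain patterning genes Otx1, a homeobox gene of the anterior brain, rose by 1.07 (11.75 and 11.71 against 10.74 and 10.59), a call that ended under median scaling (0.84) and without replicate 2 of brain-NSC (0.99). Among 5 passing Hox genes 0 were called by limma, and adjusted p by itself placed 1 higher and 2 lower. It placed 1806 of all 8916 genes tested higher and 1645 lower. Hoxa5 was bright in both groups and 0.88 lower in NED-cNSC, and it passed the limit under median scaling (-1.14).

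Signalling pathways showed single calls. Of 17 passing Notch genes, Mfng, a sugar transferase gene that modifies Notch receptors, rose by 1.7 (9.79 on both arrays against 8.04 and 8.15) and Hes5 fell. In the Wnt list of 19, Axin2, a feedback inhibitor and common readout of the pathway, rose by 1.39 (10.99 and 10.93 against 9.68 and 9.46), and Tcf7l1, a repressor of Wnt targets, fell by 1.18. Spred2, an inhibitor of ERK signalling, was 1.24 higher, the only call among 15 genes of EGF and FGF signalling. Of 16 passing BMP and TGF-beta genes Ccn1, a matricellular gene, was at least 2.64-fold lower. Without replicate 2 of brain-NSC another Ccn1 probe became the brightest, and with it the difference of -1 was no longer called. In the Hedgehog list, 4 genes passed and 0 were called by limma (0 also without the fold limit). This rests on the brightest probes. Smo differed by -0.18 on its brightest probe, and by -0.52 and -0.53 on dimmer ones (limma adjusted p = 0.00085 and 0.0017). Igfbp2, an IGF-binding protein gene, measured 11.93 and 11.91 against 13.46 and 13.6 and fell by 1.61, the only call among 9 genes of the IGF axis. A second bright Igfbp2 probe differed by -0.83 and was not called. The medians of these 6 lists were between -0.16 and 0.24.

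Immediate early genes, which respond within minutes to growth factors and stress, had the highest median of the 38 lists, 0.69 over 14 passing genes. Of these 3 rose and 0 fell, and without the fold limit 12 were higher and 0 lower. Over all 8916 genes tested, 1806 were higher and 1645 lower without it. Junb, an AP-1 subunit gene, measured 11.24 and 11.07 in NED-cNSC and 9.74 and 9.75 in brain-NSC (1.41 ± 0.1 SE, limma adjusted p = 1.2e-08). Egr2, a zinc finger factor gene, measured 11.05 and 11.33 against 9.91 and 10.16 (1.15 ± 0.11 SE), and Klf6 measured 11.86 and 12.17 against 10.97 and 10.88 (1.09 ± 0.12 SE). The arrays of the groups did not overlap in these genes. Egr1 and Jun differed by 0.93 and 0.78 and Fos by 0.28, all below the 2-fold limit. The median was 0.44 over all 17 genes with no filter, 0.96 with background-corrected intensities and 0.5 under median scaling, where the calls for Egr2 (0.95) and Klf6 (0.85) ended. Klf6 also fell under the limit without replicate 2 of NED-cNSC (0.94), and its dimmer probe differed by 0.28.

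Among G1 regulators and p53 targets, 2 of 22 rose and 1 fell, at a median of 0.37 (0.1 under median scaling). Gadd45a, a stress-induced growth arrest gene, measured 11.06 and 10.96 against 8.84 and 9.19 (1.99 ± 0.14 SE), and Gadd45b was at least 1.99-fold higher, a call that ended under median scaling (0.97). Cdkn1c, the gene of the cyclin-dependent kinase inhibitor p57, measured 9.26 on both brain-NSC arrays and was at least 2.97-fold lower, with no NED-cNSC array above background. Other members did not share a direction, for Ccnd1, which encodes cyclin D1, was 0.63 higher and Cdkn1a, which encodes p21, was 0.37 lower, neither called. Of 27 passing cell cycle genes only Mad2l1, a spindle checkpoint gene, was called, with 10.36 and 10.28 against 11.65 and 11.55 (-1.27 ± 0.1 SE). The list median was -0.14.

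Glycolysis and hypoxia genes had the lowest median of all lists, -0.4 over 27 passing genes of 30 on the array. Of these 4 fell and 1 rose, and without the fold limit 15 were lower and 2 higher. Without it, 1645 of all 8916 genes tested were lower and 1806 higher. Slc2a1, which encodes the glucose transporter GLUT1, measured 10.18 and 10.35 in NED-cNSC and 11.9 and 11.61 in brain-NSC (-1.49 ± 0.12 SE, limma adjusted p = 7.2e-08). Slc2a3, the neuronal glucose transporter gene, measured 8.08 and 8.24 against 9.45 and 9.41 (-1.27 ± 0.11 SE). Pfkl, which encodes a phosphofructokinase subunit, measured 11.02 and 11 against 12.49 and 12.37 (-1.42 ± 0.08 SE). In each the groups were clear of one another by more than the gap between replicates. Vegfa, the hypoxia-induced vascular growth factor gene, was 1.19 lower, at a mean of 10.28.

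Some genes of steps after phosphofructokinase, named after their values were seen, were lower by less than 2-fold. Ldha, for lactate dehydrogenase, differed by -0.73, Pgam1 by -0.73, Tpi1 by -0.64 and Pkm, for pyruvate kinase, by -0.54. Other Tpi1 probes differed by -0.49 and, near background, by 0.05. Hk2, which encodes the first enzyme of the pathway, differed by -0.84, and the oxygen sensor gene Egln3 by -0.92. Eno2, the neuronal enolase, went against the list with 9.37 and 9.29 in NED-cNSC and 7.97 and 7.96 in brain-NSC and rose by 1.37 (limma adjusted p = 7.8e-09). The median of the list was -0.53 with background-corrected intensities and -0.64 under median scaling, which put the median of all genes at -0.1, and 7 and 8 genes of the list were called lower. Of 35 oxidative phosphorylation genes 0 were called by limma, and 8 were higher and 6 lower without the fold limit. Over all 8916 genes tested these counts were 1806 and 1645. The median of the oxidative phosphorylation genes was 0.03, or -0.24 under median scaling.

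**Figure D4:**
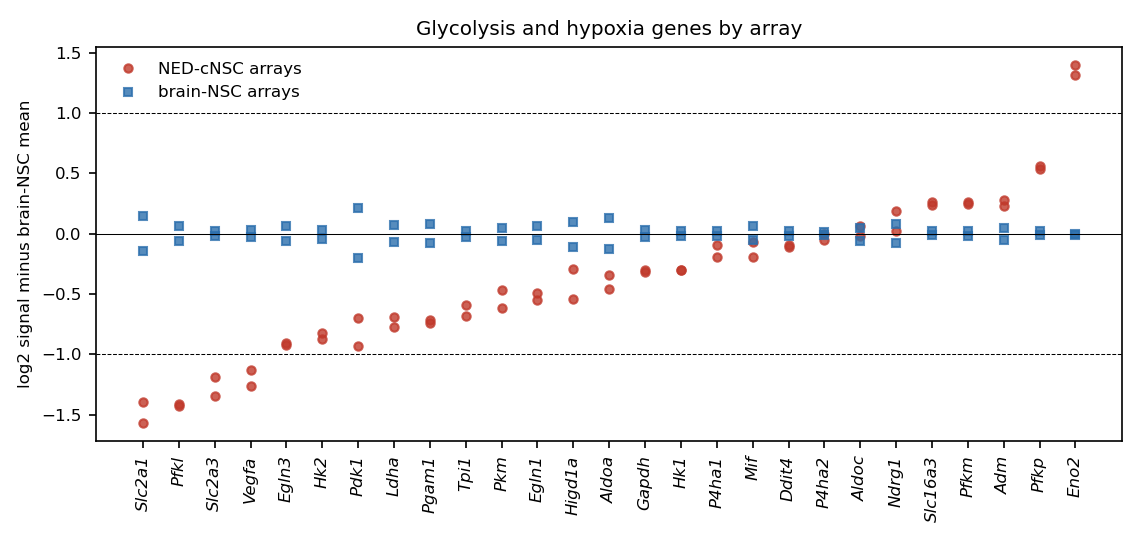
Log2 signal of the 27 passing glycolysis and hypoxia genes on each array, relative to the brain-NSC mean of the gene (y axis), ordered by their difference, with NED-cNSC arrays as red circles and brain-NSC arrays as blue squares. Slc2a1, Pfkl, Slc2a3 and Vegfa lie below the dashed 2-fold line and Eno2 above the upper one.

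Hypoxia-inducible factors bind DNA at elements with the core ACGTG. The 250 bases before the transcription start in the RefSeq promoter table (GRCm38.p6) were searched for ACGTG on either strand (CACGT when read on the gene's strand, so that CACGTG counts on both). A promoter was listed for 25 of the 27 genes, and 14 of them (56%) held the core in at least 1 window, as did 18.5% of all 27025 genes in the table. Among the list genes lower at adjusted p 9 of 14 held it, and among the others 5 of 11. The list was chosen for hypoxia as well as glycolysis, and the 27025 genes include genes not tested here. The shares of 56% and 18.5% are therefore a description of the list and do not bear on the falls. Of the 4 called lower, Slc2a1 had a match, Pfkl had none, and Slc2a3 was not matched. Vegfa had none before its first start, and its other window, with a match, lies inside the gene. The windows of Slc2a1 and of the bright lactate dehydrogenase gene Ldha are printed 5′ to 3′ on the gene's strand because they show matches, in capitals, and those of Vegfa (first start) and Pfkl because both genes fell with no match there. The printed Ldha window is the more upstream of its listed windows and lies within the annotated span of the gene. The other listed Ldha window holds no match. They lie at chr4:119108495-119108744 (plus strand), chr17:46032378-46032627 (minus), chr7:46845554-46845803 (plus) and chr10:78009808-78010057 (minus). A match describes these letters only, and no binding was measured.
Slc2a1: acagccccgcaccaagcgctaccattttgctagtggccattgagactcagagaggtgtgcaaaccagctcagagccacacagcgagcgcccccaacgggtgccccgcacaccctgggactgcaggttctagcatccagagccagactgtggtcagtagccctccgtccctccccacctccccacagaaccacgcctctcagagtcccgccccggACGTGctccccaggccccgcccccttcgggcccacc
Vegfa: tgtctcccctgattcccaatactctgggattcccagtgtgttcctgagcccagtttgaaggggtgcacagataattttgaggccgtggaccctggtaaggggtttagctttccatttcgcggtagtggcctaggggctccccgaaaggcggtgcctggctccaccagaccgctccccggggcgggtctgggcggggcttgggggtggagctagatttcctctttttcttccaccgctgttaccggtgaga
Ldha: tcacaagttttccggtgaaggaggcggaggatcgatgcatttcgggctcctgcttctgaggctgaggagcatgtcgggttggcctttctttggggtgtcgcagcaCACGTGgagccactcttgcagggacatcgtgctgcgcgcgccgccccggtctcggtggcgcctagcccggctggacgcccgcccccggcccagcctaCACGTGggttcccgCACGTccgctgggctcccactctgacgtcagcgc
Pfkl: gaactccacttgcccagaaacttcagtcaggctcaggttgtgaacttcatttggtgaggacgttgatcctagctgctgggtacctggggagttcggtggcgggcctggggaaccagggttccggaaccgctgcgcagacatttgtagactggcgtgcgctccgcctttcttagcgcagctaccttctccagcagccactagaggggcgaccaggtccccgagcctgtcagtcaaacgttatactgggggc

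Lipid transport genes included some of the largest changes in both directions. Of 18 passing genes 2 rose and 2 fell, at a median of 0.14. Besides Apoe, Lpl, which encodes the lipase that releases fatty acids from lipoproteins, rose by 2.56 (10.44 and 10.4 against 7.85 and 7.88, limma adjusted p = 1e-11). The 2 that fell were Mfsd2a and Fabp7. Both Lpl groups were tight, and the brain-NSC level was near background. Genes of cholesterol and fatty acid synthesis held 0 calls by limma among 26, with a median of -0.05. Without the fold limit 3 were higher and 4 lower, beside 1806 and 1645 of all 8916 genes tested.

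Among 28 passing interferon response and antigen presentation genes, 3 rose and 1 fell (median 0.27, or 0.06 with no filter). Gbp2, an interferon-induced GTPase gene, measured 11.07 and 10.98 in NED-cNSC and 8.59 and 8.71 in brain-NSC (2.37 ± 0.08 SE, limma adjusted p = 4.3e-12), and Gbp3 rose by 1.65. H2-T10, a non-classical class I gene, measured 9.69 and 9.33 and was at least 3.47-fold higher, whereas H2-K1, a classical class I gene, measured 8.69 and 8.76 in brain-NSC and was at least 2.06-fold lower in NED-cNSC. Both H2 genes were not above background in the other group. Class I and Gbp genes have close relatives, so a probe may read more than 1 gene, which was not tested.

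Detoxification genes were higher where called. Of 26 passing metallothionein and glutathione genes 3 rose and 0 fell (median 0.3, or 0.06 with no filter). Mgst1, a microsomal glutathione transferase gene, measured 12.02 and 11.83 against 9.92 and 9.72 (2.1 ± 0.12 SE), Hmox1, heme oxygenase 1, rose by 1.2, and Gsta4, a glutathione transferase gene, by 1.1, a call that ended under median scaling (0.97). The groups did not overlap in any of them. Slc7a11, the cystine transporter gene, rose by 1.32 and was the only call among 31 genes of amino acid and unfolded protein stress, whose median was -0.17.

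Ion channel and synapse genes gave 3 rises and 0 falls among 21 (median 0.2, or 0.07 with no filter). Cacng5, an auxiliary subunit gene for AMPA receptors, was very bright in NED-cNSC with 13.2 and 13.07, against 10.89 and 10.91 in brain-NSC (2.23 ± 0.08 SE, limma adjusted p = 8.6e-12), and another probe rose by 3.02, while one dim probe differed by 0.24. Syt11 rose by 1.11 and Sv2a, a synaptic vesicle protein gene, by 1.06. Syt11 and Sv2a ended below the limit under median scaling (0.65 and 0.95), and other Syt11 probes differed by 0.18 and 0.4. Sv2a also ended below it without replicate 1 of NED-cNSC (0.97) or replicate 2 of brain-NSC (0.95).

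Of 16 passing imprinted genes, 1 rose and 3 fell. Ndn, expressed from the paternal copy, measured 11.35 and 11.49 against 9.64 and 9.88 and rose by 1.66. Cdkn1c, expressed from the maternal copy, fell, as did the paternally expressed genes Nnat (8.65 and 8.55 against 9.94 and 9.91) and Mest (12.04 and 12.23 against 13.08 and 13.47). Genes of either parental copy were therefore among the falls. Mest differed by -0.94 without replicate 2 of brain-NSC, below the limit, but its other probes were called lower as well (-1.41 and -1.01). For brain-NSC the Ndn mean of 9.76 lay under those of all iPSC-derived NSC groups (12.19 to 12.5).

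Few genes that are often used as references were called, but their list medians lay below the -0.02 of all genes tested. Of 38 ribosomal protein genes 0 were called by limma, and 0 were higher and 14 lower without the fold limit. Over all 8916 genes tested these counts were 1806 and 1645. The median of the ribosomal protein genes was -0.21, or -0.57 under median scaling. Of 12 housekeeping genes 3 were higher and 5 lower without the fold limit, at a median of -0.18, or -0.43 under median scaling. Only Rplp0, also a ribosomal protein gene, was called, with 10.82 and 10.94 against 11.85 and 11.96 (-1.03 ± 0.12 SE). It ended below the limit without replicate 1 of NED-cNSC and without replicate 2 of brain-NSC, at -0.97 in either case. Xist, the RNA of the inactive X chromosome, differed by -0.1 on one probe and 0.33 on another, at 8.17 to 8.76 across the 4 arrays. The Y-linked gene Uty was at 7.64 to 7.75, the background level, and differed by 0.06.

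The genes of whole chromosomes differed as well. On chromosome 19 the median difference over 322 genes was -0.28, and only 19.9% of the genes were higher in NED-cNSC. There 1 gene was called higher (0.311%) and 9 lower (2.8%). On chromosome 11 the median over 772 genes was 0.14, 70.1% were higher, and 29 were called higher (3.76%) and 2 lower (0.259%). The medians of the other autosomes and the X lay between -0.08 and 0.01. Over all genes tested 2.52% were called higher and 1.57% lower. Larger shares were called higher on chromosomes 17 (4.69%), 3 (4.37%) and 16 (4.21%), and lower on chromosome 1 (3.84%). The shifts are thus those of the medians. When the genes of chromosome 19 were divided by their order into 12 blocks, the block medians were all negative, from -0.18 to -0.48, and on chromosome 11 all positive, from 0.08 to 0.23. The shifts thus ran along the length of both chromosomes. Neighbouring genes share these arrays and are no independent replicates, so no p is given. Under median scaling the chromosome 19 median was -0.43 and that of chromosome 11 was 0.03, with all genes at -0.1.

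The other NSC groups of the study show on which side these shifts lie. Relative to the median of the iPSC-derived NSC groups, chromosome 19 genes were at a median of 0.3 and 0.29 on the brain-NSC arrays and at 0.02 and 0.04 on the NED-cNSC arrays, with all genes at 0.02 to 0.04. Chromosome 11 genes were at 0.16 on both NED-cNSC arrays and at 0.04 on both brain-NSC arrays. Of the chromosome 19 genes, 82.9% were higher in brain-NSC than in that reference, compared with 55.3% in NED-cNSC. For chromosome 11 the shares were 55.2% and 74.9%. Set against these groups, chromosome 19 stood out in brain-NSC and chromosome 11 in NED-cNSC.

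**Figure D5:**
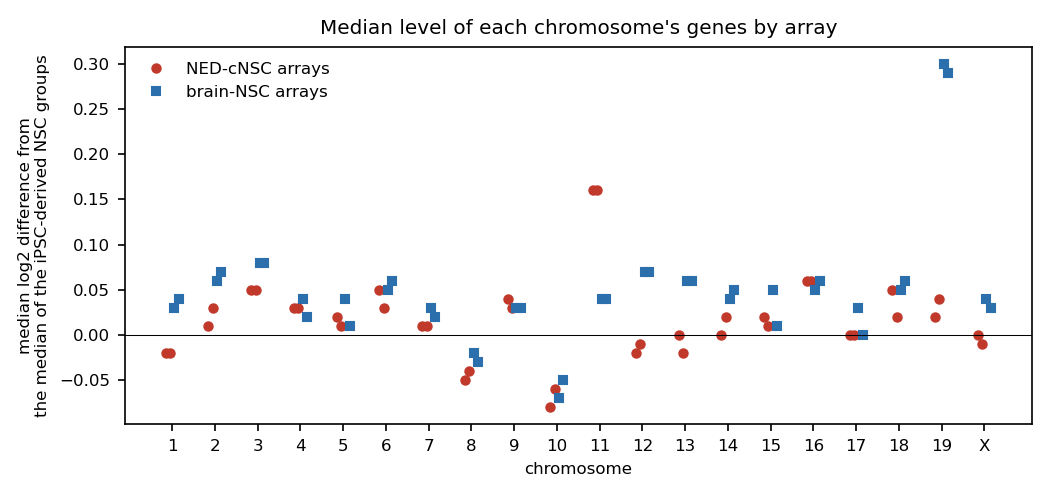
Median log2 difference of each chromosome's tested genes from the median of the iPSC-derived NSC groups (y axis) for each NED-cNSC array (red circles) and brain-NSC array (blue squares). Chromosome 11 stands out on the NED-cNSC arrays, at 0.16, and chromosome 19 on the brain-NSC arrays, at 0.29 and 0.3.

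On chromosome 19 the 4 largest called changes were those of Gnaq, Stambpl1 (-1.33), Fas (-1.24) and Fgfbp3 (-1.18). Fas, a death receptor gene, measured 9.04 and 9.11 in NED-cNSC and 10.31 and 10.34 in brain-NSC, and Stambpl1, a deubiquitinase gene, 10.22 on both arrays against 11.51 and 11.58. Both were clear of overlap. These single-gene changes are several times the chromosome's median. Among the called genes named above, Mapt, Atp1b2, Cnp, Otx1, Axin2, Spred2 and Cacng5 lie on chromosome 11, as do Stat3 and Socs3, named below. The differences of Otx1 (1.07), Cnp (1.09) and Socs3 (1.08) exceed the 2-fold limit by less than that chromosome's median of 0.14. Whether the shift contributed to these calls was not tested.

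The 225 higher and 140 lower genes were set beside the 3 iPSC-derived NSC groups, whose means did not enter the difference. In 145 of the higher genes (64.4%) the NED-cNSC mean was above all 3 iPSC-derived means, and in 116 (51.6%) the brain-NSC mean was below all 3, compared with 25.1% and 20% of all genes. Of the lower genes, NED-cNSC was lowest in 80 (57.1%) and brain-NSC highest in 78 (55.7%), compared with 17.6% and 28.8% of all genes. A call pushes the means of both groups apart, so these shares are a description. NED-cNSC lay over 1 log2 unit above the others in 38 of the higher genes and below in 21 of the lower ones, and brain-NSC over 1 unit below in 26 of the higher and above in 17 of the lower. Over all 8916 genes tested these counts were 63, 36, 42 and 38. Renbp, Pdpn and Ndn were examples of the brain-NSC side, where brain-NSC differed by -3.12, -2.58 and -2.43 from the nearest iPSC-derived mean. NED-cNSC was also below that mean in these genes, by less (-0.2, -0.08 and -0.77). Lcn2, Cd14 and Gbp2 were examples of the NED-cNSC side, at 3.62, 3.18 and 3.05 above the nearest iPSC-derived mean. Brain-NSC was above that mean too, by less (0.29, 1.47 and 0.68). Pdpn and Cd14 were chosen after their values were seen.

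Several genes were measured by more than 1 probe. Of the 365 called genes 102 had other passing probes, 140 in all. Of these 132 had the sign of the brightest probe, 38 were called the same way and 0 the opposite way. The 8 with the opposite sign belonged to 7 genes, Rrp1b, Acsl6, Zmynd11, Dtna, Fgfr1op2, Casp4 and Pacsin1, and differed from 0 by at most 0.25. Tmem14c, a mitochondrial heme transport gene chosen here after its values were seen, gave differing values. One probe was bright in brain-NSC (12.33 and 12.39) and not above background in NED-cNSC, at least 25.5-fold lower, a second probe differed by -1.95 and the probe with the highest mean by -0.78, so that the gene was not called. Probe sequences were not used here.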

How the data were processed

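The study ran 14 Illumina MouseRef-8 v2 arrays in 7 groups of 2. The authors hybridized labelled cRNA and read out the signals in GenomeStudio 2011.1. The first of the deposited tables gives, for every array, each probe's intensity and detection p-value before normalization. The other deposited table holds log2 values, quantile normalized by the authors (6.82 to 15.99, median 7.67), and was used for all main results. Groups follow the labels. Of the intensity table, 8 columns (4 signals and their p-values) could not be matched to an array by name and were not used. The columns of all 4 arrays compared were matched, and the intensities served for alternatives and the detection p-values for background. Arrays give no counts, and the number of arrays limits the precision.

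A probe passed with a mean of at least 7.7 in 1 of the groups. Gene symbols came from the platform's table, which gives 1 symbol for 23978 probes and none for 1719, and 23962 were matched to RefSeq (GRCm38.p6), the source of each gene's chromosome and order. A gene was represented by the passing probe with the highest mean over the 4 arrays. In R 4.3.3, limma 3.58.1 fitted a separate group mean to each group over all 14 arrays (degrees of freedom: 7 residual, 8.5 prior), so the spread is shared with the other groups, and p-values were adjusted over all passing probes by Benjamini-Hochberg. SE are those of this fit. If neither array of a group was above background (detection p-value under 0.05), the text states a minimum fold, the mean of the measured group over that of, on each array, the higher of the probe's value and the lowest normalized value of a probe above background. The local-pooled-error test of the paper's methods was coded anew as an alternative. Code was tested on simulated data.

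The comparison, the 38 gene lists and the rule for naming genes were chosen with earlier results of these data known. Named genes are the 15 largest rises and falls, up to 4 called members of each list or its 2 brightest, common NSC and sex-linked markers, their second probes, and 4 genes of the chromosome with the median farthest from that of all genes. Further members of the glycolysis and marker lists and other genes were named after their values were seen. Promoter sequences are from the RefSeq table of GRCm38.p6.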

Additional observations from a re-analysis of the deposited data

How the results depend on the processing

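The counts of 225 higher and 140 lower genes, with all 365 genes shared, were the same with a level of 8, with no filter, with the detection p-value on both arrays of a group as the filter, with the 4 arrays alone or the 10 NSC arrays in the fit, with the local-pooled-error test, with an intensity trend in limma, and with the 2-fold limit alone. Because the 2-fold limit alone gave the same genes, adjusted p decided none of these calls. The changes of fit and test leave the fold changes as they are, so their agreement could hardly have failed. Other settings moved the counts. Background correction of the intensities (neqc) gave 597 and 374 genes, and adjusted p alone 1806 and 1645. Median scaling of the intensities gave 151 and 203, which lowers the share of higher genes among the calls from 61.6% to 42.7%. A level of 7.7 on at least 7 of the 14 arrays, with quantile normalization repeated, gave 217 and 140, the level in both groups 194 and 110, and the mean of a gene's probes 193 and 126. Leaving out 1 array at a time gave 224 to 239 higher and 133 to 150 lower genes. No call turned to the opposite direction in these settings.

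The replicate numbers could not be shown to pair the samples, as the correlation of same-numbered deviations was 0.12 between NED-cNSC and brain-NSC and -0.23 to 0.12 over all pairs of groups. The fit with the replicate number as a block gave 225 and 140 genes, the same 365, and it too leaves the fold changes as they are.

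Single uncalled genes changed sign. Xist became 0.34 with the level on 7 of the 14 arrays and 0.12 as the mean of its probes, where another probe replaced or joined the brightest one. Under median scaling Atp5b became -0.3, Cox6b1 -0.13 and Hmgcs1 -0.19. With 1 array left out, Olig1 ranged from -0.1 to 0.06 (without replicate 1 and 2 of NED-cNSC) and Rps20 from -0.08 to 0.02 (without replicate 2 and 1 of brain-NSC). The causes were not tested. With a mean of a gene's probes, 7 of the 113 named genes were no longer called, namely Nkx2-2, Cnp, Klf6, Pfkl (-0.91), Rplp0, Syt11 and Sv2a, and with median scaling 9. Low signals limit the changes given as bounds, since 26 of the higher and 25 of the lower genes had no array above background in one group.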

Other observations

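Genes of the acute-phase and cytokine response that are on no list above were looked at after their values were seen, so no test over them is given. Cxcl1, a neutrophil chemokine gene, had means of 10.07 in NED-cNSC and 8.06 in brain-NSC (2.01 higher, limma adjusted p = 1.4e-10), and Cxcl10, an interferon-induced chemokine gene, was 1.76 higher. Cd14, the co-receptor gene for bacterial lipopolysaccharide, had means of 11.2 and 9.49, and Cebpb, a transcription factor gene of the acute phase, 11.83 and 10.2. Stat3, a cytokine signalling factor, was 1.21 higher on its brightest probe, 2.33 on another and 0.18, not called, on a dimmer one, and its feedback inhibitor Socs3 was 1.08 higher. Casp4, an inflammatory caspase gene, was 1.69 higher, though its other probes gave 0.85 and -0.07. Serpina3n, a secreted protease inhibitor gene that often rises in reactive astrocytes, went the other way and was at least 2.36-fold lower. Cxcl10, Cd14, Socs3 and Cebpb had lower means in each of the iPSC-derived NSC groups than in NED-cNSC. Brain-NSC also lay above all these groups for Cxcl10, Cd14 and Socs3, by 0.28, 1.47 and 0.76, but not for Cebpb. Of 10 microglia genes, 1 or 2 were detected on each array, with a summed linear level of 1740 and 1810 in NED-cNSC and 1750 and 1860 in brain-NSC.

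Lysosomal hydrolase genes, also picked after seeing values, rose in NED-cNSC: Hexa by 1.59, Manba by 1.28, Arsb by 1.09 and Neu1 by 1.05, while the lysosomal carboxypeptidase gene Prcp fell by 2.87. Sgk1, a kinase gene induced by glucocorticoids, was 1.78 higher, Dusp1, a phosphatase gene that ends MAP kinase signals, 1.21, and Dbp, a clock-controlled transcription factor gene, 1.34. Pou3f1, a POU factor gene of neural progenitors, was 1.47 lower and Gsc, a homeobox gene, at least 2.55-fold lower.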
